A study of Mus musculus with 18 samples.

Results

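Cfhr3, Kng2, Mug1 and Mug2 are liver genes whose proteins are secreted into blood plasma, and 6 circular RNAs of the 434 in the deposited table lie in them. The members were taken by their coordinates: 3 circles in Cfhr3 and 1 each in Kng2, Mug1 and Mug2. A circular RNA (circle) is made when splicing links the tail of a later stretch of a transcript to the head of an earlier one. It is counted by reads across that back-splice junction, so each circle is counted at a single point whatever its length.

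The livers came from male C57BL/6 mice that entered the experiment at 6 weeks of age and were sequenced in week 22, with 6 mice in each of 3 groups. In all 45 mice entered, 15 in each group, and how the 6 were chosen was not examined here. CCl4+PZH mice were gavaged daily with PZH (Pien Tze Huang, a traditional remedy) and injected into the peritoneum 2 times a week with CCl4 (carbon tetrachloride), which damages hepatocytes and served as the liver cancer model. The sample labels write PTH for this treatment, which was taken as the same agent. CCl4 mice had the same injections and were gavaged with water. Control mice were gavaged with water and injected with olive oil. Whole liver RNA was used, and no label says whether tumour or surrounding tissue was sampled.

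The hosts belong to families with parts in complement, in the release of kinins and in the inhibition of proteases. Cfhr3 belongs to the complement factor H-related genes, relatives of factor H, which restrains the alternative pathway of complement. Kng2 encodes a kininogen, the precursor from which kallikrein releases the peptide bradykinin, and kininogens also inhibit cysteine proteases. Mug1 and Mug2 encode murinoglobulins, rodent relatives of alpha-2-macroglobulin that trap proteases of many classes. The level of a circle is not the level of its host's messenger RNA or protein, neither of which was analysed here.

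All 3 Cfhr3 circles lie on chromosome 1 of GRCm38 and share their ends. Cfhr3 is transcribed from the minus strand between 139584294 and 139661006, so the higher coordinate is the upstream one. The upstream circle runs from 139622055 to 139628309 (6255 bp) and the downstream circle from 139593754 to 139597732 (3979 bp). The spanning circle, from 139593754 to 139628309, begins where the upstream circle begins and ends where the downstream circle ends. It covers 34556 bp, or 45.0% of the gene, of which 24322 bp are in neither of the shorter circles. These are genomic spans, and the exons inside them were not analysed here.

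The Kng2 circle lies at 22997023 to 23004039 of chromosome 16 (7017 bp), within a minus-strand gene of 43250 bp. The Mug1 circle lies at 121865734 to 121870650 of chromosome 6 (4917 bp) and the Mug2 circle at 122047435 to 122051875 (4441 bp), both in plus-strand genes. Mug1 ends 117671 bp before Mug2 begins, and the pseudogene Mug-ps1 begins 90084 bp beyond Mug2. The table gives no strand, so the direction is that of the host gene in RefSeq.

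**Figure D1:**
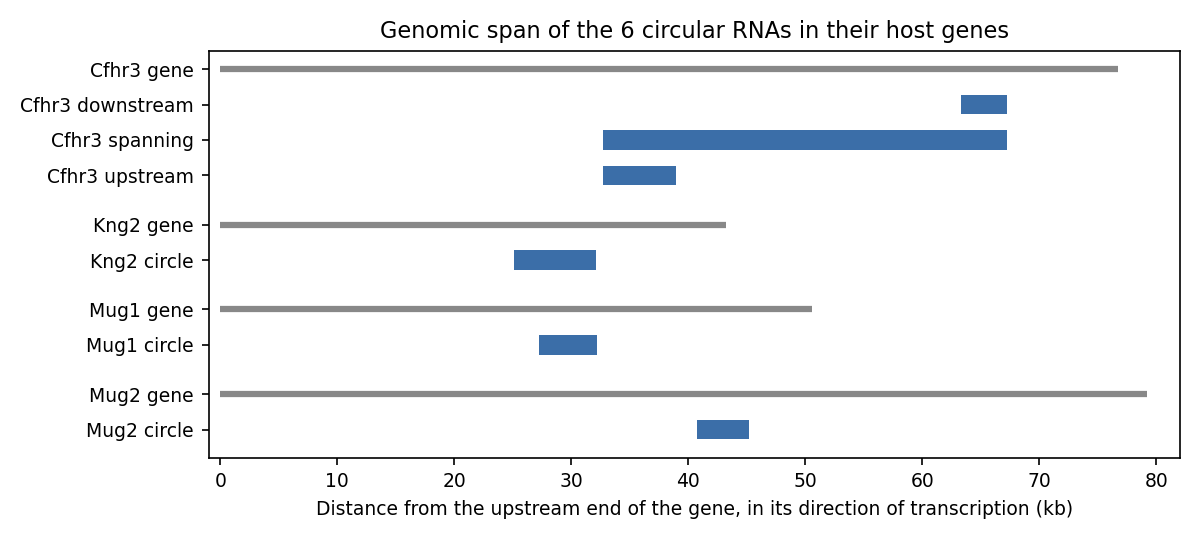
Genomic span of each circle (blue) within its host gene (grey), in kb from the upstream end of the gene. The spanning Cfhr3 circle shares an end with each of the other 2 Cfhr3 circles, and the Kng2, Mug1 and Mug2 circles lie inside their genes.

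Mug1 and Mug2 are related copies, and reads of one might be placed on the other, which was not tested. Their promoters are printed to show how alike that part of the genes is, with the longest stretch that they share in capitals. Each runs from 250 bases before to 50 bases after the start given with the promoters (GRCm38.p6, plus strand). They lie at chr6:121838291-121838590 for Mug1 and chr6:122006548-122006847 for Mug2. The RefSeq genes used for the circles begin upstream of those starts, at 121838496 for Mug1 and 122006729 for Mug2.
Mug1: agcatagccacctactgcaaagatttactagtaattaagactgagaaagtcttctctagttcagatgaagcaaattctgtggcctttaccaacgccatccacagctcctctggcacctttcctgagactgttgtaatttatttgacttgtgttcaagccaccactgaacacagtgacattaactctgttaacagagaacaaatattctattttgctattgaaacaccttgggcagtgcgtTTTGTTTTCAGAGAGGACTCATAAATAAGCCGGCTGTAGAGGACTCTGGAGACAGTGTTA
Mug2: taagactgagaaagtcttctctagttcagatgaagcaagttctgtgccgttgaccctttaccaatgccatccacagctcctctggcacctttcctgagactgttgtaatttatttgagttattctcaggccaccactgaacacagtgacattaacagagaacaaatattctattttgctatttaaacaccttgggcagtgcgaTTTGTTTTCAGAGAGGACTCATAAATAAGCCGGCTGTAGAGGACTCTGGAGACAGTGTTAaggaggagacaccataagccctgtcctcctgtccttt
The shared stretch is 60 bases long and begins 10 bases before the start given with the Mug1 promoter and 47 bases before that of Mug2. It reaches the last base printed for Mug1, so it may run further in the genome. In a local alignment, 247 of 256 aligned bases were identical (96.5%, gaps not counted). The longest stretch shared by any other pair of the 4 hosts' promoters was 8 bases. The junction sequences of the circles themselves are not printed, since no genome was used here. How alike the copies are at those junctions is therefore not shown by the promoters. Cfhr3 also belongs to a gene family, and how alike its relatives are was not tested.

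The deposited values are CPM, counts of back-splice reads divided by a library total that the authors chose. In each library they fell on steps of equal size, and that step, the worth of 1 read, gave back the reads behind them. A library held 900 to 2840 recovered reads over all circles, and 1 read was worth 0.0449 CPM in control 3 and 0.306 CPM in control 2. Where a circle is listed at 0, counting error alone allows as many as 3 reads. That equals 0.918 CPM in control 2, where 1 read was worth most, and 0.135 CPM in control 3, where it was worth least. Control 3 nevertheless held the fewest recovered reads (900), so its low limit in CPM does not mean that circles were counted more deeply. Summed CPM ran from 116 to 251 in CCl4+PZH, from 85.5 to 184 in CCl4 and from 40.4 to 550 in control libraries, so equal CPM does not mean equal reads. Controls 2, 3 and 4 differ from the other 15 libraries in their processing notes, which name mm10 beside GRCm38.

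The 6 circles were rare. Together they held 201 of 25803 reads (0.779%), with 69 reads in CCl4+PZH, 54 in CCl4 and 78 in control livers. Of the 108 values, 71 were above 0 (65.7%), against 68.6% over the whole table. No circle of the table had fewer than 9 libraries above 0 of the 18, and the Mug1 and upstream Cfhr3 circles sat exactly at 9. No member exceeded 11 reads in any library.

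Mug2 had the highest level and Mug1 the lowest. Over all 18 livers Mug2 averaged 0.453 ± 0.544 CPM (52 reads, above 0 in 15 livers), and Mug1 0.0884 ± 0.114 CPM (16 reads, above 0 in 9; SD, n = 18). By mean CPM they ranked 130 and 432 of 434. Between them, in the order of mean log2 level, came the downstream Cfhr3 circle (0.234 ± 0.216 CPM, 31 reads), the spanning Cfhr3 circle (0.272 ± 0.344 CPM, 39 reads), Kng2 (0.246 ± 0.262 CPM, 37 reads) and the upstream Cfhr3 circle (0.193 ± 0.336 CPM, 26 reads).

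Of the 15 pairs of members, 1 differed by a paired sign-flip permutation test (two-sided, 100000 resamples, adjusted over the 15 pairs). Mug2 exceeded Mug1 by 1.12 on the log2(CPM + pseudocount) scale (SE 0.33, permutation adjusted p = 0.0392), being higher in 13 of 18 livers, lower in 3 and equal in 2. With 1 liver left out, the difference stayed between 0.95 and 1.27, and the adjusted permutation p ran from 0.00645 to 0.0829. The call held when CCl4+PZH 2, CCl4 8, control 1, control 3 or control 5 was left out. It was lost without any one of CCl4+PZH 1, 3, 6, 7 and 8, CCl4 1, 2, 4, 5 and 7, and controls 2, 4 and 8. No neighbours in the order of levels differed beyond their spread. The smallest adjusted permutation p among the other 14 pairs was 0.0701, for Mug2 over the upstream Cfhr3 circle (log2 0.85, SE 0.31) and for the downstream Cfhr3 circle over Mug1 (log2 0.63, SE 0.23).

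None of the 6 circles passed the test in any of the 3 comparisons between groups. Each comparison was fitted with limma over all 434 circles, in log2(CPM + 0.13655), and called at a Benjamini-Hochberg adjusted p under 0.05. CCl4 against control asks what the toxin changes, CCl4+PZH against CCl4 asks what the treatment changes, and CCl4+PZH against control asks how far treated livers are from normal ones. The last 2 share the CCl4+PZH livers, and each other pair of comparisons also shares a group, so their values are not independent. The share of the table that was called was 0.691% (3 of 434) for CCl4 against control, 0% for CCl4+PZH against CCl4 and 0.23% (1 of 434) for CCl4+PZH against control, beside 0 of 6 members in each. At an unadjusted p under 0.05 the members also numbered 0 in each comparison, where all 434 circles gave 36, 24 and 22. In whole liver, fewer cells that make an RNA and less of it per cell cannot be told apart.

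The downstream Cfhr3 circle had the largest log2 difference of CCl4+PZH from CCl4 among the 6 members. It stood at 0 CPM at the lowest, 0.448 at the median and 0.629 at the highest in CCl4+PZH livers, with 15 reads in all. In CCl4 livers the lowest was 0, the median 0.107 and the highest 0.292 CPM, with 6 reads. In controls the lowest was 0, the median 0.218 and the highest 0.612 CPM, with 10 reads. Means were 0.356 ± 0.249, 0.114 ± 0.111 and 0.233 ± 0.221 CPM (SD, n = 6 each) in CCl4+PZH, CCl4 and control livers. CCl4+PZH livers 2, 6, 7 and 8 lay above every CCl4 liver, while CCl4+PZH 1 and 3 lay among them. The limma log2 difference of CCl4+PZH from CCl4 was 0.87 (SE 0.67, adjusted p = 0.851), with a 95% interval from −0.44 to 2.18. CCl4 differed from control by −0.46 (adjusted p = 0.862) and CCl4+PZH from control by 0.41 (adjusted p = 0.948).

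The spanning Cfhr3 circle was above 0 in 4 CCl4+PZH, 3 CCl4 and 5 control livers. It ran from 0 to 1.21 CPM with a median of 0.122 in CCl4+PZH, from 0 to 0.549 with a median of 0.0920 in CCl4, and from 0 to 0.968 with a median of 0.285 in controls. The groups overlapped, and CCl4+PZH 7, with 8 reads, held the highest value of all. Its log2 difference of CCl4 from control was −0.67 (limma SE 0.67, adjusted p = 0.818), the most negative of the 6 members in that comparison. The 95% interval ran from −1.98 to 0.64. Differences of CCl4+PZH were 0.32 from CCl4 and −0.35 from control (adjusted p = 0.992 and 0.967).

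The upstream Cfhr3 circle was listed at 0 in 3 CCl4+PZH, 4 CCl4 and 2 control livers. Its highest values were 0.295 CPM (2 reads) in CCl4+PZH, 0.612 CPM (5 reads) in CCl4 and 1.35 CPM (7 reads) in controls, with medians of 0.0971, 0 and 0.0857 CPM. The log2 differences were −0.40 for CCl4 against control, 0.09 for CCl4+PZH against CCl4 and −0.31 for CCl4+PZH against control (limma SE 0.55, adjusted p = 0.862, 0.992 and 0.967). Without control 4, which held 7 of the 12 control reads, the first was 0.078 and so turned its direction (adjusted p = 0.993).

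The 3 Cfhr3 circles share ends. Of 18 livers, the downstream one was above 0 in 14, the spanning one in 12 and the upstream one in 9. All 3 were above 0 together in 5, and whether that departs from their separate frequencies was not tested. All 3 were above 0 in 1 CCl4+PZH, 1 CCl4 and 3 control livers, and none was above 0 in CCl4 1. Their reads, in the order downstream, spanning and upstream, were 15, 13 and 6 in CCl4+PZH, 6, 9 and 8 in CCl4, and 10, 17 and 12 in control livers. Over the 18 libraries, as shares of each library's summed CPM, Spearman's rho was −0.09 for downstream with spanning, −0.40 for downstream with upstream and 0.01 for spanning with upstream. These are descriptions of sparse counts in shared libraries and were not tested.

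**Figure D2:**
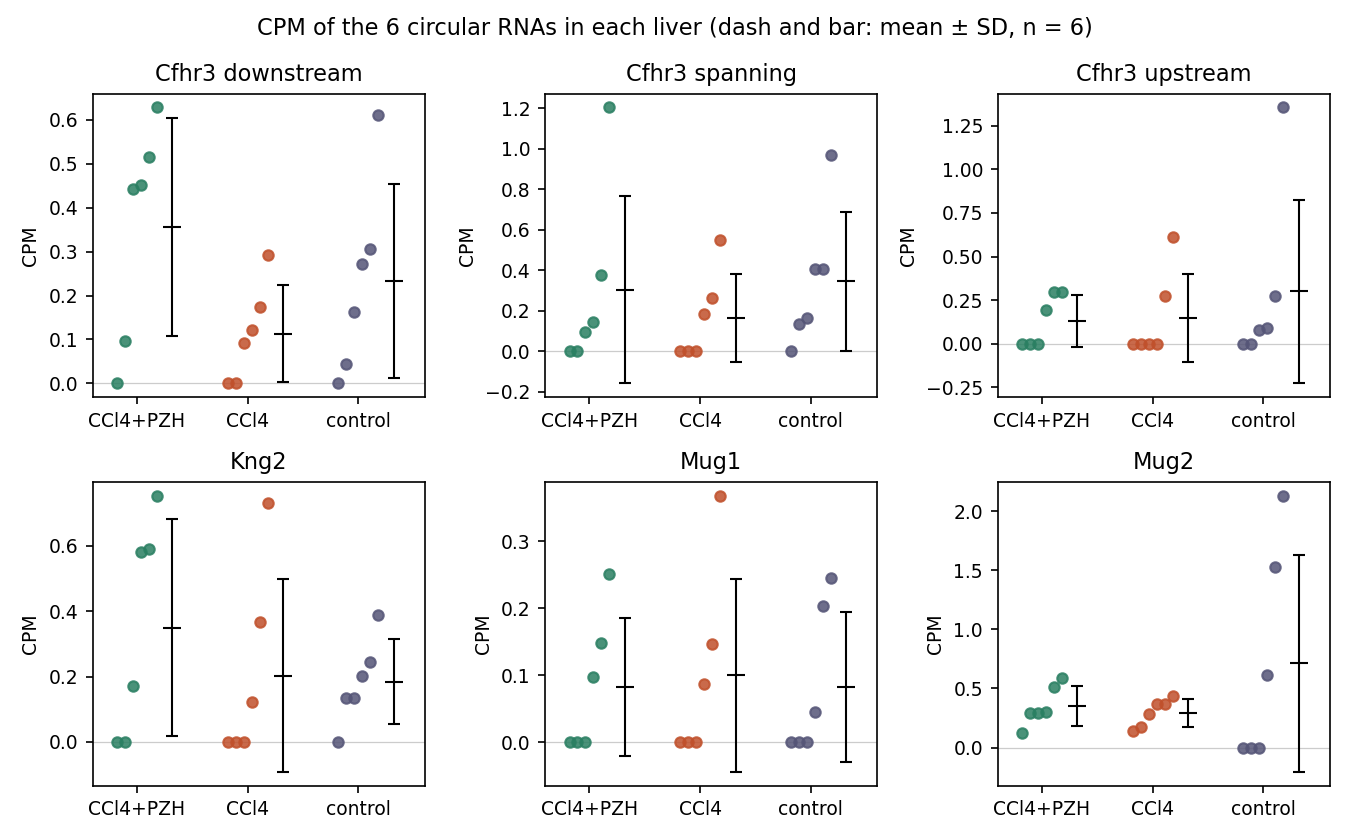
CPM of each circle in each liver (points) in CCl4+PZH, CCl4 and control, 6 livers a group, with the mean ± SD beside them. Scales differ between panels. The groups overlap in all 6 panels, and Mug2 reaches 2.13 CPM in a control while all CCl4+PZH and CCl4 livers lie between 0.126 and 0.591 CPM.

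Kng2 was above 0 in 4 CCl4+PZH, 3 CCl4 and 5 control livers. It ran from 0 to 0.754 CPM with a median of 0.377 in CCl4+PZH livers (16 reads). In CCl4 livers it ran from 0 to 0.730 CPM with a median of 0.0612 (10 reads), and in controls from 0 to 0.387 CPM with a median of 0.170 (11 reads). CCl4+PZH 1, 6 and 7 and CCl4 2 lay above every control, and the other livers lay among them. Means were 0.350 ± 0.332, 0.203 ± 0.295 and 0.184 ± 0.130 CPM in CCl4+PZH, CCl4 and control livers (SD, n = 6 each). Despite the higher mean in CCl4 than in control, the limma log2 difference of CCl4 from control was −0.21 (SE 0.66, adjusted p = 0.944), since more CCl4 livers stood at 0. CCl4+PZH differed by 0.54 from CCl4 (adjusted p = 0.953, 95% interval −0.76 to 1.84) and by 0.33 from control (adjusted p = 0.967).

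Mug1 was above 0 in 3 of 6 livers of each group. Its highest values were 0.252 CPM (2 reads) in CCl4+PZH, 0.368 CPM (4 reads) in CCl4 and 0.245 CPM (3 reads) in control livers, with 4, 6 and 6 reads in all. The means were 0.0827 ± 0.103, 0.1002 ± 0.144 and 0.0822 ± 0.112 CPM (SD, n = 6 each). The log2 differences were the smallest of the set, at 0.07 for CCl4 against control, −0.05 for CCl4+PZH against CCl4 and 0.02 for CCl4+PZH against control (limma SE 0.42, lowest adjusted p = 0.978). Intervals at 95% ran from −0.75 to 0.90, from −0.87 to 0.77 and from −0.80 to 0.84, so changes of about that size were not detectable at this depth. A fold change on this scale understates that of low values, and Mug1 had the lowest level of the set. Under the alternatives other than leaving a library out, the 3 differences ran from −0.32 to 0.30, from −0.90 to −0.019 and from −0.60 to 0.041.

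The Mug2 circle was found in all 12 CCl4-injected livers and in 3 of 6 controls. It was above 0 in 6 of 6 CCl4+PZH livers, from 0.126 to 0.591 CPM with a median of 0.298, and in 6 of 6 CCl4 livers, from 0.137 to 0.438 CPM with a median of 0.326. Controls 1, 3 and 5 were listed at 0, and controls 8, 2 and 4 stood at 0.610, 1.53 and 2.13 CPM, with 6, 5 and 11 reads. In CPM every CCl4+PZH and CCl4 liver thus fell between the controls at 0 and those at 0.610 or more. As a share of the reads that gap was broken by CCl4 8 alone. Per 1000 recovered reads Mug2 had 0.535 to 3.14 in CCl4+PZH livers and 0.896 to 4.30 in CCl4 livers. Controls 8, 4 and 2 had 3.27, 3.87 and 3.96. The highest share was that of CCl4 8, with 4 of 930 reads. Every other CCl4+PZH or CCl4 liver had 3.14 or less. Controls 2 and 4 had the highest summed CPM. The means were 0.353 ± 0.170, 0.295 ± 0.119 and 0.712 ± 0.918 CPM in CCl4+PZH, CCl4 and control livers (SD, n = 6 each), and the difference in spread was not tested. A count of 0 allows up to 0.408 CPM in control 1, 0.135 CPM in control 3 and 0.245 CPM in control 5. Control 3 held fewer recovered reads (900) than controls 1 and 5 (1321 and 1369), so its lower limit is no firmer an absence. Of the 3 controls above 0, controls 2 and 4 are among those whose notes also name mm10, and control 8 is not.

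For Mug2 the log2 differences were −0.08 for CCl4 against control, 0.16 for CCl4+PZH against CCl4 and 0.08 for CCl4+PZH against control (limma SE 0.70, adjusted p = 0.99, 0.992 and 0.988). The last is positive although the mean CPM was lower in CCl4+PZH livers than in controls, because on the log scale the 3 controls at 0 outweigh the high ones. With controls 1, 5 and 8 alone the first was 0.79, with a turned sign, and it did not pass either. In presence (a value above 0), 6 of 6 CCl4 livers stood against 3 of 6 controls, and so did 6 of 6 CCl4+PZH livers (Fisher's exact test, two-sided p = 0.182 each, adjusted p = 1). Presence was called for 0% of the 434 circles in each of the 3 comparisons and for 0 of 6 members, but this test could hardly call any. The smallest p that 6 against 6 allows is 0.00216, and 19 circles would have to reach it together to pass the adjustment. Of all 434 circles, 3, 0 and 3 had an unadjusted Fisher p under 0.05, where limma called 3, 0 and 1.

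**Figure D3:**
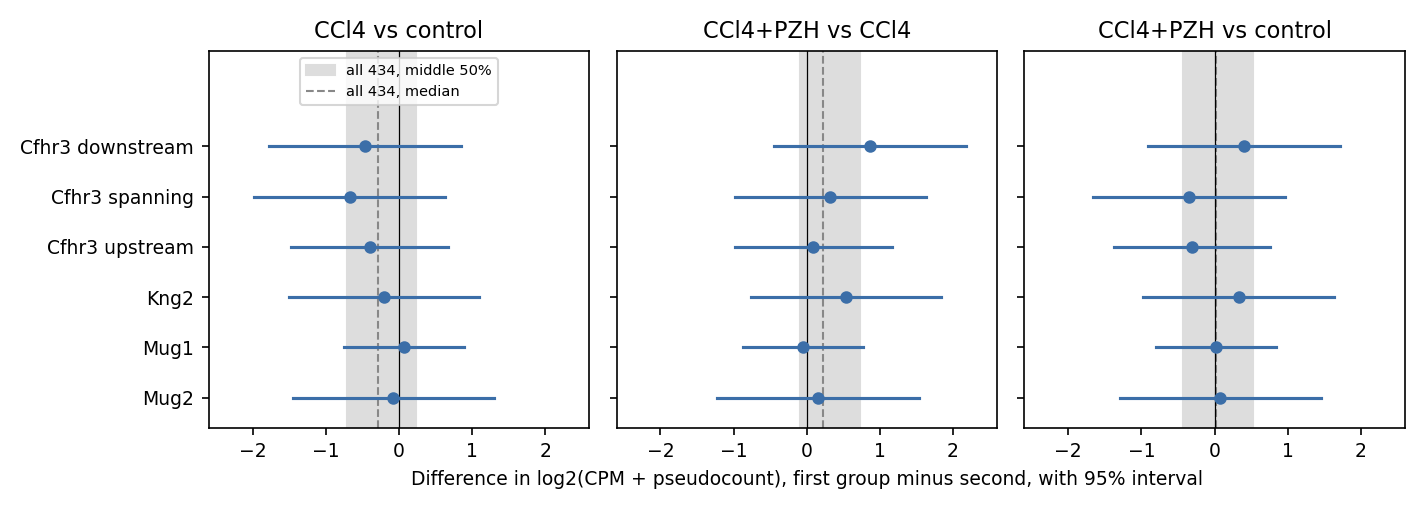
Limma difference in log2(CPM + pseudocount) of each circle (points, with 95% intervals) in the 3 comparisons. The dashed line and grey band give the median and the middle 50% of all 434 circles. All 18 intervals include 0.

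In CPM the medians of the 6 circles lay close to those of the table. Their median log2 difference was −0.30 for CCl4 against control, with 1 of 6 positive, where all 434 had −0.28. It was 0.24 for CCl4+PZH against CCl4, with 5 of 6 positive, where all 434 had 0.23, and 0.05 against 0.02 for CCl4+PZH against control, with 4 of 6 positive. Scaling each library to its own summed CPM brought the table's medians to −0.03, 0.03 and 0.0079 in the same order of comparisons. The members' medians were then −0.25, 0.0016 and −0.0069, so for CCl4 against control they lay 0.22 below the table. In that comparison they lay 0.24 below it with quantile normalization, but 0.055 above it by edgeR and 0.038 above it by DESeq2. The gap thus changed side with the setting and was not tested, and single members had limma SEs of 0.42 to 0.70. In CPM, relative to the table's median, the member farthest from it was the downstream Cfhr3 circle in CCl4+PZH against CCl4, at 0.64.

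From liver to liver, the highest Spearman's rho between 2 members was 0.53, for Kng2 with Mug1. Mug1 with Mug2 had 0.01 (n = 18, shares of summed CPM, no test). Among the other circles of the table, those most like each member were in Cyp1a2, Rnf114 and Asb3 for the downstream Cfhr3 circle (rho 0.56, 0.56 and 0.55), and in Rad52, Dennd1b and Trpm7 for the spanning one (0.73, 0.64 and 0.61). For the upstream one they were in Chuk, Spred2 and G6pc (0.60, 0.56 and 0.54). Kng2 was most like circles in Rn18s-rs5, Rbm33 and Arhgap12 (0.66, 0.60 and 0.57). Mug1 was most like those in Acaca, Prkag2 and Eps15l1 (0.75, 0.71 and 0.68), and Mug2 like those in Uty, Fbxo47 and Nedd4l (0.72, 0.64 and 0.59). These are the highest rho values over all other circles of the table, and how high unrelated circles would reach was not tested. No member was among another's nearest 3, which says little where so many other circles could take those places.

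Beyond the 4 hosts of the members, 1 other gene of the plasma protein lists gave circles, the pseudogene Mug-ps1. Of 133 genes in 4 lists, which do not cover every secreted protein, 5 hosts with 9 circles were in the table: Cfhr3 of 38 complement genes, Kng2 of 29 kinin and coagulation genes, Mug1, Mug2 and Mug-ps1 of 28 protease inhibitor genes, and 0 of 38 carrier and acute phase genes, which include albumin and transferrin. None of the 9 passed in either direction in any comparison. Adamts13, Pon1 and Ces1c, whose proteins are also secreted, were not in these lists though they host circles. Those differed by −1.23, −2.04 and −1.61 for CCl4 against control (limma adjusted p = 0.551, 0.199 and 0.403), and none was called in any comparison. The median log2 differences of the 5 protease inhibitor circles were −0.08 for CCl4 against control, 0.04 for CCl4+PZH against CCl4 and 0.02 for CCl4+PZH against control.

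Mug-ps1, a transcribed pseudogene of the murinoglobulins, gave more reads than both of its coding relatives together. Its 3 circles held 293 reads, 105 in CCl4+PZH, 73 in CCl4 and 115 in control livers, against 15, 15 and 22 reads of Mug2 and 4, 6 and 6 of Mug1. The first, from 122207897 to 122209106 of chromosome 6 (1210 bp), had 204 reads and ranked 9 of 434 by mean CPM. It was listed at 0 in CCl4+PZH 8 and had 4 to 25 reads in the other 17 livers. The second, from 122207897 to 122221009, shares a coordinate with the first and had 2, 13 and 4 reads in CCl4+PZH, CCl4 and control livers. The third, from 122229313 to 122230786, averaged 0.886 ± 0.714 CPM in CCl4+PZH livers, 0.152 ± 0.169 in CCl4 livers and 0.761 ± 0.792 in controls (SD, n = 6 each). It had an unadjusted p of 0.0217 for CCl4+PZH against CCl4 and did not pass (limma log2 1.63, SE 0.71, adjusted p = 0.804). The second circle differed by −0.85 in that comparison (adjusted p = 0.804) and the first by 0.04 (adjusted p = 0.992).

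A further circle, chosen after its values were seen, joined the 2 coding genes. It ran from 121874392, inside Mug1, to 122063738, inside Mug2, and its 189347 bp were the longest span in the table. It held 28 reads, with 15 in CCl4+PZH, 9 in CCl4 and 4 in control livers, and was above 0 in 5, 4 and 2 of 6 livers. Its log2 differences were 0.50 for CCl4 against control (adjusted p = 0.861), 0.51 for CCl4+PZH against CCl4 (adjusted p = 0.953) and 1.01 for CCl4+PZH against control (limma SE 0.63, adjusted p = 0.763). Whether reads of one copy placed on the other gave rise to it was not tested. Of the 5 circles in the table with no single host gene, 3 had their ends in different genes.

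**Figure D4:**
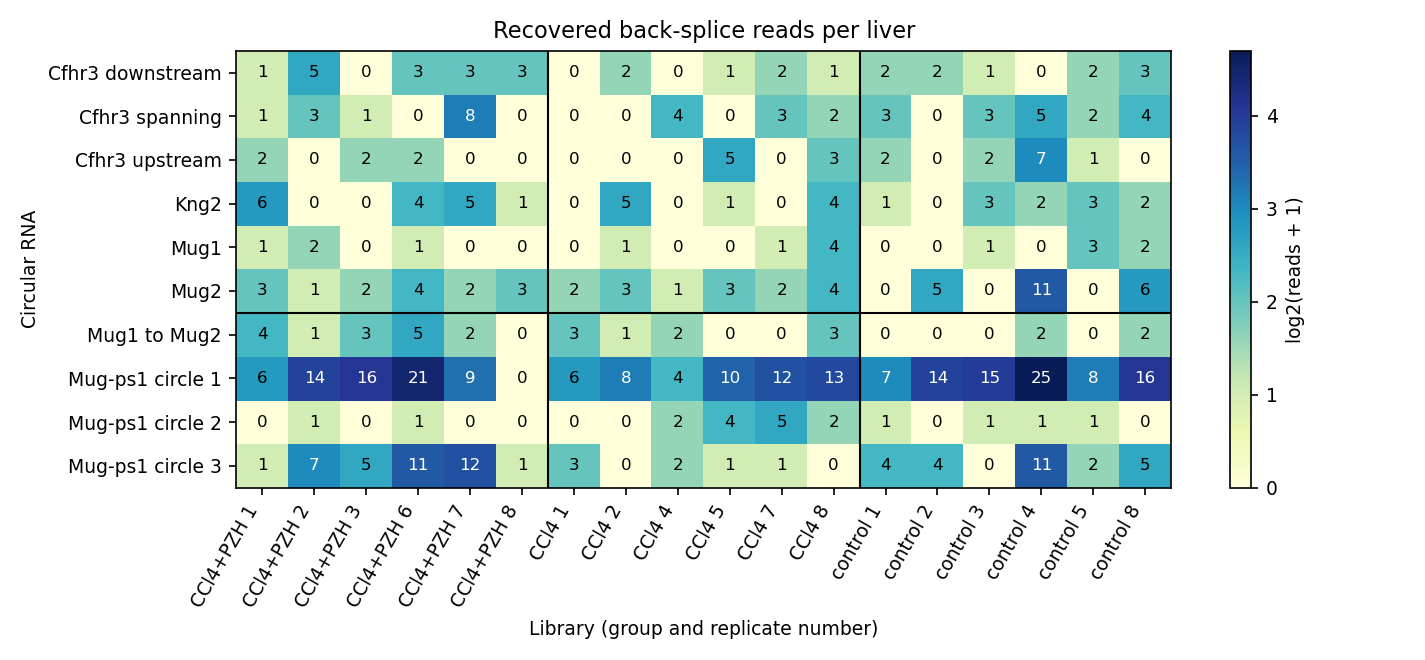
Recovered back-splice reads (numbers, colour on a log2(reads + 1) scale) of the 6 members, above the horizontal line, and of the Mug1 to Mug2 circle and the 3 Mug-ps1 circles, below it. Columns are livers by group and replicate number. The first Mug-ps1 circle reaches 25 reads, while no member exceeds 11.

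Markers of cell types were read from the same table. Their lists were chosen with earlier results of these data known, so they are no independent check. Hepatocyte genes, which fit the labelled tissue, hosted 10 circles in 8 of 20 listed genes. Their summed CPM ran from 1.55 to 5.29 in CCl4+PZH, from 0.96 to 4.53 in CCl4 and from 1.80 to 14.7 in control livers. Their median log2 difference was −1.36 for CCl4 against control, with 2 of 10 positive, beside −0.30 for the 6 members. It was 0.60 for CCl4+PZH against CCl4, with 9 of 10 positive. For CCl4+PZH against control it was −0.59, with 3 of 10 positive, and 0 of 10 were called in any comparison. The 4 circles of macrophage genes ran from 0.680 to 3.02, from 0.368 to 4.66 and from 0 to 2.71 summed CPM in CCl4+PZH, CCl4 and control livers (median log2 0.83 for CCl4 against control, 0 called). The 1 circle of lymphocyte genes was above 0 in 6 CCl4+PZH, 5 CCl4 and 3 control livers. None of the 28 stellate, endothelial and cholangiocyte genes listed hosts a circle in the table, so those cells could not be followed. The part of cell composition in the members' values was not tested.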

How the data were processed

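The deposited table holds back-splice CPM for 434 circular RNAs in 18 mouse livers, 6 per group. RNA was depleted of ribosomal RNA and sequenced as paired 150 bp reads, per the labels' protocols. The submitters' processing notes name the build GRCm38 and, as tools, HISAT2 2.2.1, Bowtie2 2.5.1, cutadapt 4.2, FastQC 0.11.9 and StringTie 2.1.5. Which program called the circles, which total the CPM use and how the list was filtered are not given in the sources.

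Whole reads were recovered by dividing each library by its smallest non-zero CPM: 100% of 7812 values lay within 0.1 of a whole number. Hosts were genes of GRCm38.p6 (RefSeq) containing both ends, the shortest coding one where several did, and 429 circles had one. No 2 libraries of a group agreed within counting noise (45 pairs, highest chi-square p = 1.01e-31). The labels' protocols give 6 mice per group as the source of the libraries.

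Under R 4.3.3, limma 3.58.1 was applied to log2(CPM + 0.13655), where the pseudocount is the median worth of 1 read over the libraries, with 1 fit of 3 group means, an intensity trend and no filter. A fold change on this scale understates that of low values. Levels of members were compared by permutation and presence by Fisher's exact test. Alternatives were 3 pseudocounts, a filter, 2 scalings, array weights, no trend, 2-group fits, the recovered reads in DESeq2 1.42.0 and in edgeR 4.0.16, a replicate block, fewer controls and each library left out. The limma and edgeR code was tested on simulated data. Other steps used scipy 1.17.1, pandas 2.3.3, numpy 2.4.6 and, for plots, matplotlib 3.10.9 in Python 3.11.15.

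The named circles were the 6 members, for each the 3 of highest Spearman's rho, and every host in the 4 plasma protein lists. The circle from Mug1 to Mug2 and those of Adamts13, Pon1 and Ces1c were added after their values were seen. The members and lists were chosen with earlier results of these data known.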

Additional observations from a re-analysis of the deposited data

Results flagged for a closer look

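A liver was singled out by Dixon's test at the 95% level: in a group of 6, the highest or lowest value had to stand apart from its neighbour by more than 0.625 of the whole range. Of 18 groups of members' values, 2 had such a liver, where chance gives 0.9 for normally distributed values. The spanning Cfhr3 circle stood at 1.21 CPM (8 reads) in CCl4+PZH 7, against 0.377 CPM in the next liver of its group, a gap of 0.687 of the range. The upstream Cfhr3 circle stood at 1.35 CPM (7 reads) in control 4, against 0.272 CPM in the next control, a gap of 0.799 of the range. Control 4 also had the highest summed CPM (550) and the most recovered reads (2840) of the 18 libraries.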

How the results depend on the processing

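No member passed the threshold under any of the alternatives run. Of the 546 values of the 18 member differences, 478 kept their direction and 68 did not, and the lowest adjusted p was 0.639 (limma). The 7 differences that kept it throughout were those of the downstream Cfhr3 circle (3 comparisons), the spanning one against control (2) and Kng2 for CCl4+PZH (2). The reversals were as follows. For CCl4 against control, Kng2 had 0.15 by edgeR and 0.16 by DESeq2. Mug1 had −0.16 with array weights and −0.32 with controls 1, 5 and 8. Mug2 had 0.19 with a pseudocount halved, 0.56 scaled to the table's own total, 0.54 with quantile normalization, 0.60 with array weights, 0.0082 by edgeR and 0.79 with controls 1, 5 and 8. For CCl4+PZH against CCl4, the upstream Cfhr3 circle had −0.0064 with a pseudocount of 1 CPM, −0.038 scaled, −0.026 with quantile normalization, −0.59 by edgeR and −0.61 by DESeq2, and Mug2 had −0.17 scaled, −0.29 with quantile normalization, −0.15 by edgeR and −0.19 by DESeq2. For CCl4+PZH against control, the upstream Cfhr3 circle had 0.014 with controls 1, 5 and 8. Mug1 had −0.20 scaled, −0.24 with quantile normalization, −0.21 with array weights, −0.48 by edgeR, −0.60 by DESeq2, −0.13 with the replicate block and −0.38 with controls 1, 5 and 8. Mug2 had −0.11 with a pseudocount doubled, −0.19 with 1 CPM, −0.14 by edgeR and −0.20 by DESeq2. The cause of these was not tested.

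With 1 library left out, differences for CCl4 against control ranged from −0.75 to 0.078 for the upstream Cfhr3 circle, from −0.18 to 0.26 for Mug1 and from −0.41 to 0.40 for Mug2. For CCl4+PZH against CCl4 they ranged from −0.10 to 0.62 for the spanning Cfhr3 circle, from −0.088 to 0.45 for the upstream one and from −0.24 to 0.20 for Mug1. For CCl4+PZH against control they ranged from −0.52 to 0.17 for the upstream Cfhr3 circle, from −0.17 to 0.21 for Mug1 and from −0.26 to 0.55 for Mug2. The differences that kept their direction also moved: the spanning Cfhr3 circle from −0.97 to −0.37 for CCl4 against control and from −0.77 to −0.05 for CCl4+PZH against control, and the downstream one from −0.70 to −0.21, from 0.69 to 1.19 and from 0.16 to 0.73 for CCl4 against control, CCl4+PZH against CCl4 and CCl4+PZH against control. Kng2 moved from 0.28 to 0.89 for CCl4+PZH against CCl4 and from 0.08 to 0.62 for CCl4+PZH against control.

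Over the whole table, 3 circles were called for CCl4 against control, 2 higher and 1 lower. The count was 1 with a pseudocount of 1 CPM, 1 with the filter of 12 libraries (237 circles tested), 5 scaled to the table's own total (3 higher, 2 lower), 5 by edgeR (4 higher, 1 lower) and 1 with the replicate block. With 1 library left out it ran from 1 (without CCl4 1, 2, 7 or 8 or controls 1, 4 or 8) to 6 (without control 3). For CCl4+PZH against control 1 was called, and 0 with the filter, 3 with array weights and 2 by edgeR; with 1 library left out it ran from 1 to 3 (without control 2). For CCl4+PZH against CCl4 it was 0 throughout. None of these calls was a member.

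The filter left out Mug1 and the upstream Cfhr3 circle. Same-numbered mice did not vary together (13 shared numbers, correlations of −0.15 to 0.08, 4 of 26 highest with their own number), so the numbers were not taken to pair them, and the block changed no member's call. Of the 15 pairs of members, 1 was called, 0 with a pseudocount halved, 0 without the 3 controls whose notes name mm10, and 0 to 2 with 1 library left out. Few reads limit every value: the median non-zero value in the table was 3 reads.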

Other observations

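Livers differed in how many of the 6 circles they held. CCl4+PZH 1 and CCl4 8 had all 6 above 0, with 14 and 18 reads, although CCl4 8 had 930 recovered reads in all, the second lowest of the 18 libraries. CCl4 1 had only that of Mug2, with 2 reads of 1284. Control 4, with 25 reads of the members, had no read of Mug1 or of the downstream Cfhr3 circle. Per liver, 3 to 6 members were above 0 in CCl4+PZH, 1 to 6 in CCl4 and 2 to 5 in controls, with medians of 4, 4 and 4.5. In the same order of groups, 69.4%, 58.3% and 69.4% of the members' values were above 0, against 71.5%, 66.5% and 67.7% over the whole table.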
